A study of Mus musculus with 26 samples.

Results

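GnRH neurons of testis-intact male mice were compared with the tissue around them in 8 of the 26 libraries of a ribosome-tagging study. The 8 were the 4 ribosome pull-downs and the 4 supernatants of the same 4 pools of mice, taken by the submitters' sample codes and paired by their pool number, 0 to 3. All of the mice, in every group used here, came from sires homozygous for GnRH CRE and dams homozygous for a floxed-stop L10a-GFP allele. Their GnRH neurons therefore carry ribosomal protein L10a fused to green fluorescent protein. Preoptic area punches were taken from adults of 55 to 165 days, and pools 0 and 1 held 7 mice each while pools 2 and 3 held 5 each. Translating ribosome affinity purification (TRAP) splits a pool's lysate into ribosomes caught through the tag and the supernatant that is left. Orchidectomized males (3 pools of 5 mice) and intact females in diestrus (3 pools of 7, 6 and 5 mice), of the same genotype and with both fractions, were used only for comparison. A floxed-stop allele stays switched on in every cell that had Cre at any earlier time. None of the groups lacked the Cre or the tag, so RNA that sticks to the beads without it was not measured.

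GnRH neurons are a small, scattered population. They arise in the nasal placode of the embryo, migrate along olfactory and vomeronasal axons into the forebrain, and settle around the preoptic area. They secrete gonadotropin-releasing hormone into the pituitary portal blood in pulses, which drives the release of luteinizing and follicle-stimulating hormone and thereby testicular function. Testosterone and its metabolites feed back on this release, mostly through afferent neurons, among which kisspeptin neurons excite GnRH neurons directly.

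Total counts ran from 34605845 to 52979754 per library. Between 16018 and 16924 genes had a count in a pull-down and between 17964 and 18178 in a supernatant. The pools differed more in their pull-downs (edgeR's common BCV, the relative spread beyond counting error, was 0.592) than in their supernatants (0.186). The 4 tested Y-linked genes summed to 62.5 to 98.05 CPM (counts scaled by the library's effective size) in the 8 libraries. Libraries of pools 0 and 1 are numbered 4, 5, 9 and 10 in the labels and those of pools 2 and 3 are 16, 17, 26 and 27. Library number and pool size therefore cannot be told apart in these mice, and values within each pair of pools are given where they differ. The supernatant of pool 3 stood apart in blood genes, described with the marker lists.

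Gnrh1, the gene of the hormone precursor on chromosome 14 (67745181 to 67749439, mm10), checked the label. It stood at 17400, 20700, 4616 and 4527 CPM in the pull-downs of pools 0 to 3 and at 55.6, 235, 99.5 and 99.9 CPM in their supernatants. All pull-downs lay far above all supernatants, and the pull-downs of pools 0 and 1 were about 4 times as high as those of pools 2 and 3. The fitted difference was 96.4-fold (log2 6.59 ± 0.94 SE, adjusted p 2.75e-05, higher in 4 of 4 pools). With the pool as a block it was 6.40 (adjusted p 0.000598). Within pools 0 and 1 the log2 difference was 7.00 and within pools 2 and 3 it was 5.52, and the test of the difference between them did not pass (adjusted p 0.314). Gnrh1 took 1.556% and 1.877% of all counts in the pull-downs of pools 0 and 1, the largest share of any gene there. In the pull-downs of pools 2 and 3 it took 0.4755% and 0.4717%, and polyubiquitin Ubb held the largest share. In bulk RNA such as this, fewer cells of a type and less RNA per cell cannot be told apart.

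**Figure D1:**
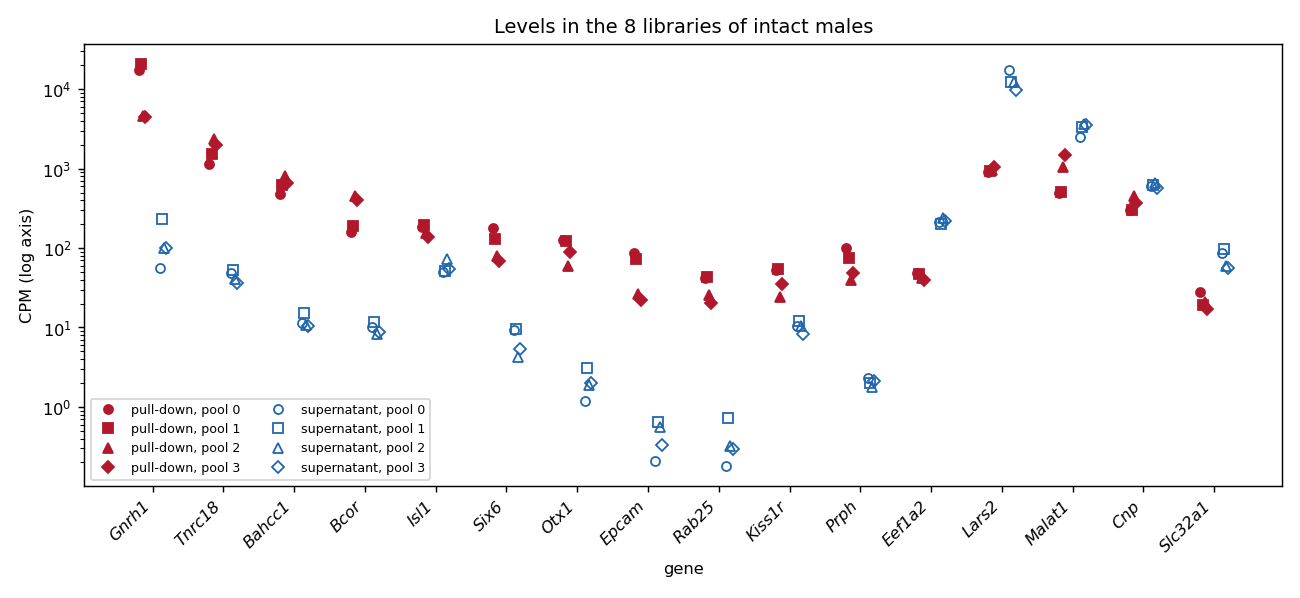
Level of 16 genes in each of the 8 intact male libraries, in CPM on a log axis, 1 point per library (filled red, pull-down; open blue, supernatant; shape, pool). Gnrh1 pull-downs lie between 4527 and 20700 CPM and its supernatants between 55.6 and 235 CPM. CPM is not per length, so points are to be compared within a gene.

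Of 16713 tested genes, 2446 were higher in the pull-down (14.6%) and 1879 were lower (11.2%) at an adjusted p under 0.05. At least 2-fold, 769 rose (4.6%) and 760 fell (4.55%). In 2395 genes (14.3%) every pull-down was above every supernatant and in 2585 (15.5%) every one was below, so that 29.8% of genes did not overlap. The genes called higher were short and those called lower were long. The median longest annotated transcript was 2076 bases for the higher genes, 4355 for the lower ones and 3255 for all tested genes with a length. With the genes split into 4 equal groups by this length, 30.03% of the shortest group were called higher and 4.158% lower, and 5.868% and 19.19% of the longest group. The trend was steeper in pools 0 and 1, where the median log2 ratio (pull-down over supernatant, with 0.25 CPM added to each) of the longest group was -0.63 and -0.55. In pools 2 and 3 it was -0.10 and -0.19. Across genes, which are not independent replicates, Spearman's rho between length and log2 difference was -0.31 over all pools, -0.345 in pools 0 and 1 and -0.168 in pools 2 and 3 (16448 genes). The median length of a list is given with it where it lies far from 3255. Counts of list members called are to be set against the 14.6% higher and 11.2% lower of all tested genes. What length had to do with any call was not tested.

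**Figure D2:**
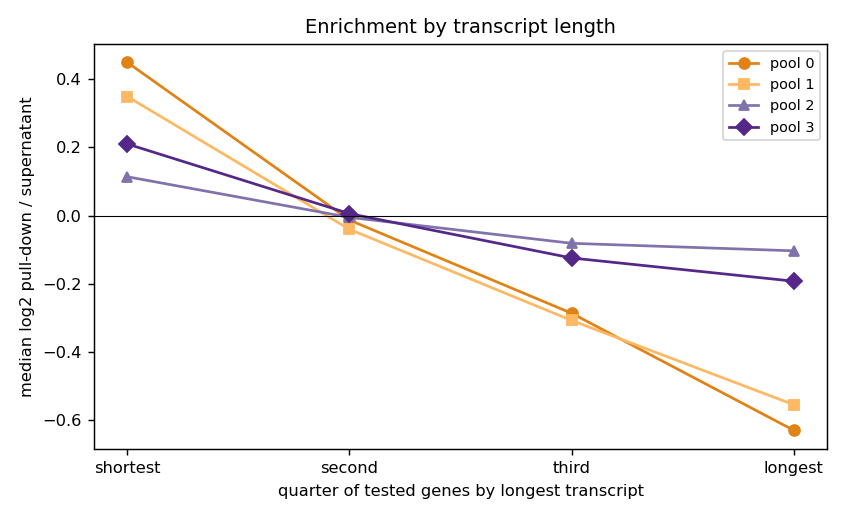
Median log2 ratio of pull-down over supernatant in each pool, for genes in 4 equal groups by longest annotated transcript (1 line per pool). The lines of pools 0 and 1 fall from 0.45 and 0.35 in the shortest group to -0.63 and -0.55 in the longest, and those of pools 2 and 3 from 0.11 and 0.21 to -0.10 and -0.19.

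Genes best known from epithelia made up a large part of the genes that rose most. Among the 15 named by size of the difference were Epcam, an adhesion molecule of epithelial cells, Rab25, a small GTPase of apical membrane recycling, and the tight-junction genes Cldn9 (5.65) and Cldn7 (5.49). Epcam stood at 87.8, 71.8, 26.1 and 22.4 CPM in the pull-downs and at 0.207, 0.644, 0.554 and 0.328 CPM in the supernatants. Pools 0 and 1 were the higher pull-downs, and no supernatant reached 1 CPM. The log2 difference was 6.90 ± 0.82 (adjusted p 2.46e-06), the largest of the named genes. Rab25 stood at 41.6, 43.7, 25.5 and 20.6 CPM against 0.181, 0.725, 0.320 and 0.292 CPM, again with no overlap, and rose by 6.45 ± 0.69. Of the epithelial list, 33 genes were tested, 16 were higher and 1 was lower (median log2 2.55 against -0.04 over all tested genes). These included keratin 8, Krt8 (4.40), the claudin gene Cldn3 (4.39), the adaptor subunit gene Ap1m2 of epithelial sorting (5.17), the polarity gene Crb3 (3.25) and the protease inhibitor genes Spint1 (2.77) and Spint2 (1.78). E-cadherin, Cdh1, was at 1.95, 2.38, 4.52 and 1.17 CPM in the pull-downs and 0.181, 0.483, 0.320 and 1.51 CPM in the supernatants, which overlapped, and did not pass (1.99, adjusted p 0.190). The epithelial splicing factor gene Esrp1 had a value of 3.46 (adjusted p 0.0565). The lower member was the desmosome gene Pkp3, which had no count in any pull-down and 69 counts over the supernatants, at least 20.1-fold lower against a floor of 3 counts over the group. The list's median was 2.70 in pools 0 and 1 and 1.84 in pools 2 and 3, and its median length was 2323 bases. It was drawn up knowing that such genes were high here, so its count describes these libraries and nothing more.

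The other genes named by size had varied roles. Tmprss6, a membrane serine protease, rose by 5.44. Tstd1, a small thiosulfate sulfurtransferase-like gene, rose by 5.89. Olah, whose enzyme releases medium-chain fatty acids, rose by 5.82 and Arg1, the arginase of the urea cycle, by 5.60. Arg1 stood at 60.2, 58.2, 28.98 and 24.9 CPM against 0.778, 1.18, 0.746 and 0.857 CPM, without overlap. Tstd1 overlaps the neighbouring gene Usf1 on the same strand, so its counts are less certain. The kit does not mark the strand, so this holds as well for genes that overlap an antisense gene, among them Six6, Six3, Otx2, Pou2f1, Kiss1r, Slc32a1, Kcnk10 and Cnp below. Snrpn overlaps Snurf, Manf overlaps Rbm15b, and Cx3cr1 overlaps Gorasp1, Csrnp1 and Xirp1 on the same strand.

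A second set of strongly raised genes encodes large nuclear proteins. Bahcc1, a reader of repressive histone marks, stood at 475, 619, 804 and 655 CPM in the pull-downs and 11.3, 15.3, 10.7 and 10.5 CPM in the supernatants. Its paralogue Tnrc18 stood at 1128, 1509, 2347 and 1963 CPM against 49.1, 53.5, 41.1 and 35.8 CPM. In both genes no libraries overlapped and, unlike Gnrh1 and Epcam, the pull-downs of pools 2 and 3 were the higher ones. Bahcc1 rose by 5.74 ± 0.48 (adjusted p 1.64e-08) and Tnrc18 by 5.28 ± 0.37 (adjusted p 2.21e-09). Bcor, a corepressor of polycomb complexes, was at 157, 187, 450.3 and 397 CPM against 10.2, 11.8, 8.31 and 8.70 CPM and rose by 4.93 ± 0.39. Gse1, which belongs to a corepressor complex with histone deacetylases, rose by 4.95, and Chd7, the chromatin remodeller whose loss causes CHARGE syndrome, by 2.16. Longest annotated transcripts of 10726 bases for Bahcc1, 9342 for Tnrc18, 6941 for Bcor and 10216 for Chd7 place them in the longest group, in which calls were mostly lower. Bahcc1 and Gse1 overlap other annotated genes, and Tnrc18, Bcor and Chd7 do not. Of the 32 tested chromatin and corepressor genes, 8 were higher and 6 were lower (median 0.06, median length 5206 bases). The nuclear receptor corepressor Ncor1 (0.87) and the Groucho-type corepressor Tle1 (1.02) rose. The class II deacetylase gene Hdac5 fell by 0.66.

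TAAT is a core motif that homeodomain factors bind. Promoter sequence is shown as a description for 4 of these genes, 2 of each set, and for Isl1 below. Each is the 250 bases before the RefSeq start (GRCm38.p6, the assembly of mm10), given 5′ to 3′ on the gene's strand, with TAAT or its reverse complement ATTA in capitals.
Epcam, chr17:87635729-87635978, plus strand: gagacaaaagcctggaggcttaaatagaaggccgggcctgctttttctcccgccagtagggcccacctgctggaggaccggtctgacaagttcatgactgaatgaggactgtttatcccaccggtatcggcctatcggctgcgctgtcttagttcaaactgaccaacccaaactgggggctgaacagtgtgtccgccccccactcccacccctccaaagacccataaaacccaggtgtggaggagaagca
Rab25, chr3:88548280-88548529, minus strand: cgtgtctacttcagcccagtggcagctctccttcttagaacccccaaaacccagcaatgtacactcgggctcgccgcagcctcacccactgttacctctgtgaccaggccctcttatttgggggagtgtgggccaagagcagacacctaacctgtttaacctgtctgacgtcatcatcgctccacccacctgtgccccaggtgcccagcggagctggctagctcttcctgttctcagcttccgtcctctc
Bahcc1, chr11:120232697-120232946, plus strand: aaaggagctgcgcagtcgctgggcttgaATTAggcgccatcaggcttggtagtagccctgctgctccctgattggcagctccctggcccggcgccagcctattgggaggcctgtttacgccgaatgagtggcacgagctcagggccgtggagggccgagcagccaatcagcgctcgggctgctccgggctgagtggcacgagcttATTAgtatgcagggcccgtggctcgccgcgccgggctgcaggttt
Tnrc18, chr5:142817663-142817912, minus strand: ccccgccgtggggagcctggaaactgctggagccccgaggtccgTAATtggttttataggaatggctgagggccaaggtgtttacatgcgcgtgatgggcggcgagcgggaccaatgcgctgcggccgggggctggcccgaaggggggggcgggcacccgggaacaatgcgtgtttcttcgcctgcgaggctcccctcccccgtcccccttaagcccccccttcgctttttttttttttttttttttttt
Isl1, chr13:116309689-116309938, minus strand: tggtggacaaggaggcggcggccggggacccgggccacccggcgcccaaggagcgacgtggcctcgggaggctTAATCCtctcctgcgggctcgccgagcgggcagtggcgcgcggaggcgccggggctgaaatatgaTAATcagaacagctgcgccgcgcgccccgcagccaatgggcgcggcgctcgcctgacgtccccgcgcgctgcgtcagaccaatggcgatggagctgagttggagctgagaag
TAAT was found 2 times upstream of Bahcc1, once upstream of Tnrc18 and 2 times upstream of Isl1, where 1 of the matches belongs to the longer TAATCC of OTX factors. Epcam and Rab25 held neither in this window. Over all 32851 promoters in the table, 54.9% held TAAT and 6.25% held TAATCC on either strand. Of the 15 genes named by size, 9 had an entry, with 12 promoters, of which 7 held TAAT and 1 held TAATCC. A match is a description of the sequence and says nothing of binding.

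Transcription factors known from GnRH neurons and their development were mostly higher or not called. Of 21 tested, 10 were higher and 2 lower, with a median log2 of 0.67. Otx1, an orthodenticle-type homeobox gene, was at 128, 124, 58.8 and 87.9 CPM in the pull-downs and 1.19, 3.06, 1.90 and 1.99 CPM in the supernatants and rose by 5.62 ± 0.52 (adjusted p 8.03e-08). Six6, a homeobox gene needed for GnRH neuron number, was at 178, 128, 79.9 and 68.8 CPM against 9.33, 9.58, 4.20 and 5.31 CPM. Pools 0 and 1 were the higher in both fractions, and the difference of 4.01 ± 0.40 was nearly the same in pools 0 and 1 (4.00) as in pools 2 and 3 (3.97). Isl1, a LIM-homeobox gene of many neuroendocrine neurons, was at 183, 198, 157 and 139 CPM against 49.8, 51.9, 73.7 and 55.3 CPM. The groups did not overlap (1.55 ± 0.16, adjusted p 2.52e-07). The basic helix-loop-helix gene Nhlh2 rose by 1.96, Meis1 by 1.67, Dlx5 by 1.15, Vax1 by 0.95 and Six3 by 0.67. Octamer factor Pou2f1 was at 16.2, 44.8, 77.6 and 76.7 CPM against 18.1, 16.9, 17 and 15.2 CPM. It overlapped through the pull-down of pool 0 and was called at 1.68. Otx2 was called at 1.01 (adjusted p 0.0295), but not with the pool as a block (adjusted p 0.0652). Lhx2 (-0.72) and Pknox1 (-0.72) fell. Ebf2, which acts in GnRH neuron migration, was above in every pull-down but did not pass (1.41, adjusted p 0.323).

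Receptors through which peptides and amines reach GnRH neurons were more often lower than higher. Of 35 tested, 3 were higher and 7 lower, with a median of -0.64. Kiss1r, the kisspeptin receptor, was at 53.6, 53.9, 23.98 and 35.3 CPM in the pull-downs and 10.6, 11.9, 10.4 and 8.24 CPM in the supernatants. No libraries overlapped, and it rose by 2.02 ± 0.25 (adjusted p 4.14e-06). Npffr1, the receptor for gonadotropin-inhibitory RFamides, was at 19.97, 30.4, 14.3 and 9.55 CPM against 5.37, 4.97, 3.32 and 3.45 CPM and rose by 2.12 ± 0.32. The prostaglandin receptor gene Ptger2 was called at 1.17 (adjusted p 0.0399), with 0.16 in pools 0 and 1 and 1.86 in pools 2 and 3, and not with the block (adjusted p 0.101). The dopamine receptor gene Drd2 (-1.30), the serotonin receptor gene Htr1a (-1.10) and both GABA-B receptor genes, Gabbr1 (-0.88) and Gabbr2 (-1.06), fell. The neurokinin B receptor gene Tacr3 (-0.94, adjusted p 0.284) and Prokr2 (-1.14, adjusted p 0.200) did not pass. Among 35 tested genes of human hypogonadotropic hypogonadism, 4 were higher and 4 lower (median -0.43, median length 4474 bases). These shares lay near the 14.6% and 11.2% of all tested genes. The higher ones were Gnrh1, Kiss1r, Chd7 and Nelf, an older symbol of Nsmf (0.31, adjusted p 0.0383), and the fibroblast growth factor receptor gene Fgfr1 was among the lower ones (-1.36).

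Genes for making and packing peptides went both ways. Of 26 tested, 7 were higher and 4 lower (median 0.10). The small GTPase genes Rab3b and Rab27b, which act on dense-core granules, were at 941, 825, 676 and 635 and 172, 142, 148 and 129 CPM in the pull-downs. Their supernatants were at 364, 391, 394 and 387 and 64.4, 57.3, 87.6 and 84.2 CPM, without overlap, and Rab3b rose by 1.00 ± 0.13 and Rab27b by 1.01 ± 0.19. Scg5, the chaperone of prohormone convertase 2, rose by 1.08, the convertase inhibitor precursor Pcsk1n by 0.74, the endopeptidase-like gene Ecel1 by 0.85, and Qpct, whose enzyme makes the N-terminal pyroglutamate that GnRH carries, by 0.83. The granin-like peptide gene Vgf fell by 1.21. Carboxypeptidase E, Cpe (-0.21, adjusted p 0.563), and Pcsk2 (-0.35, adjusted p 0.128) did not pass.

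Early steps of the secretory pathway, from targeting to the endoplasmic reticulum onward, were higher for 10 of 40 tested genes and lower for 2 (median 0.40, median length 2547 bases), and with the pool as a block for 18 and 3. Sec61b, a subunit of the protein-conducting channel, was at 289, 344, 135 and 155 CPM in the pull-downs and 74.4, 78.5, 66.3 and 72.1 CPM in the supernatants. The pull-downs of pools 0 and 1 were the highest, and the difference was 1.66 ± 0.26 (adjusted p 9.87e-05), 2.02 in pools 0 and 1 and 1.07 in pools 2 and 3. Its partner Sec61g rose by 1.54, the translocon-associated gene Ssr4 by 1.09 and the folding-stress factor gene Manf by 1.04. These are small genes, with longest transcripts of 723 bases for Sec61b and 1862 for Sec61g.

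Nuclear genes of the respiratory chain were higher for 50 of 65 tested and lower for none, with a median log2 of 0.65. They are short, with a median longest transcript of 1231 bases. Ndufb4, of complex I, was at 433, 558, 227 and 250 CPM in the pull-downs and 141, 161, 142 and 151 CPM in the supernatants and had the largest difference of the list (1.30 ± 0.25, adjusted p 0.000501). Cox7b of complex IV rose by 1.14 and Atp5l of the ATP synthase by 1.21. Summed over the list, the pull-downs of pools 0 to 3 held 37560, 40240, 25420 and 26620 CPM and the supernatants 21100, 23070, 22780 and 22900 CPM. The pull-downs of pools 2 and 3 lay only slightly above the supernatants, and the list's median was 0.94 in pools 0 and 1 and 0.26 in pools 2 and 3. Of the list, 5 genes passed the test of that difference, and 0 with the pool as a block. Over all tested genes without the block, 0.808% passed as larger in pools 0 and 1 and 1.02% as smaller. Translation factors were higher for 11 of 31 and lower for 2 (median 0.34). Eef1b2 (0.90) and Eef1a1 (0.59) rose, whereas Eef1a2, the form of elongation factor 1A that mature neurons and muscle use, was at 48.3, 47.4, 42.4 and 39.6 CPM against 211, 200.2, 240 and 219 CPM and fell by 2.29 ± 0.17 (adjusted p 2.64e-09). Levels of Eef1a2 were alike in all 4 pull-downs and in all 4 supernatants, and the fall was as large in pools 2 and 3 (-2.49) as in pools 0 and 1 (-2.13).

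**Figure D3:**
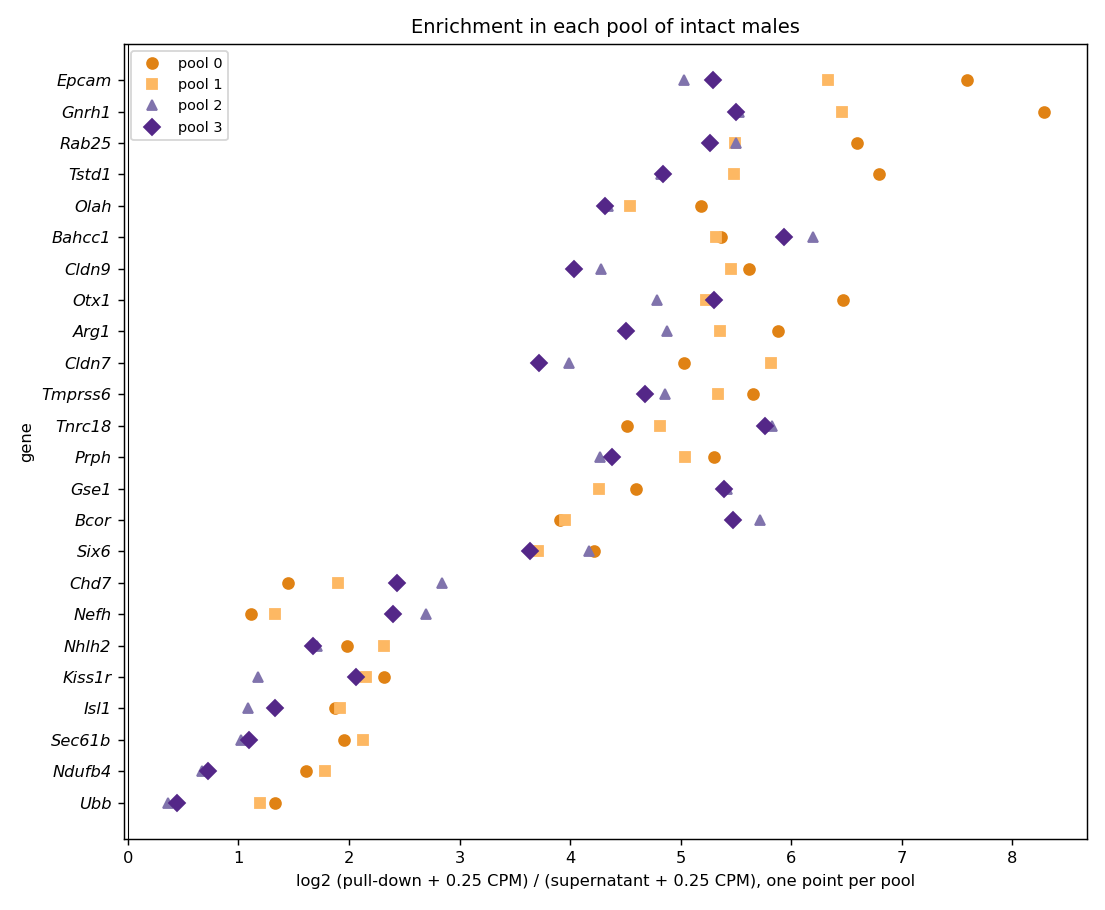
Log2 ratio of pull-down over supernatant (0.25 CPM added to each) in each pool, for 24 genes, 1 point per pool. All points lie above 0. Pools 0 and 1 (orange) lie further out for Gnrh1, Epcam and Ubb, and pools 2 and 3 (purple) for Bahcc1, Tnrc18, Gse1, Bcor, Chd7 and Nefh.

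Predicted, ribosomal, mitochondrial and Y-linked genes were passed over, uncounted, in the ranking by level. Among genes called higher without overlap, the pull-downs held most, by CPM, of Gnrh1, Ubb, the cyclophilin gene Ppia, Snrpn and the calmodulin gene Calm2. Apart from Gnrh1 their differences were modest, at 0.91 for Ubb, 0.73 for Ppia, 0.63 for Snrpn and 0.44 for Calm2. Ubb was at 9604, 9021, 4838 and 4963 CPM in the pull-downs and 3820, 3932, 3762 and 3647 CPM in the supernatants, where it hardly varied. It differed between pools 0 and 1 and pools 2 and 3 (1.24 against 0.40, adjusted p of the difference 0.0130), and so did Ppia (adjusted p 0.0280), but neither with the pool as a block (adjusted p 0.0602 and 0.0852).

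Cytoskeletal genes of neurons went both ways, 6 higher and 10 lower of 29 (median -0.17). Prph, the peripherin of neurons with peripheral projections, was at 99.6, 74.4, 39.2 and 48.9 CPM in the pull-downs and 2.28, 2.01, 1.79 and 2.12 CPM in the supernatants and rose by 5.00 ± 0.40 (adjusted p 8.05e-09). Nefh, the heavy neurofilament chain, was at 212, 239.8, 602 and 510.1 CPM against 97.9, 95.4, 92.5 and 96.3 CPM and rose by 2.03 ± 0.31. Its supernatants were nearly equal, and its pull-downs of pools 2 and 3 were more than 2 times those of pools 0 and 1. The stathmin genes Stmn1 (1.00) and Stmn2 (0.88) and the ubiquitin hydrolase gene Uchl1 (0.98) rose. Dpysl2, a collapsin response mediator, was at 97.8, 100.1, 86.5 and 92.8 CPM against 323, 343, 368 and 349 CPM, fell by 1.87 ± 0.12 and had the lowest adjusted p of all named genes (8.10e-10). The kinesin genes Klc2 (-1.68) and Kif5a (-1.13) also fell.

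Transcripts of the presynaptic release machinery were lower or not called. Of 28 tested, 15 were lower and none higher (median -0.58, median length 4668 bases), and with the block 18 were lower. Complexin 2, Cplx2, which clamps and times vesicle fusion, was at 78.8, 103, 99.7 and 99.1 CPM in the pull-downs and 275, 265, 338 and 242 CPM in the supernatants and fell by 1.56 ± 0.17 (adjusted p 5.00e-07). The calcium sensor gene Syt2 (-1.68), the vesicle fusion factor gene Napb (-1.09), Cplx1 (-0.61) and the vesicle SNARE gene Vamp2 (-0.45) fell. Among genes of transmitter identity, 7 of 19 were lower and 1 was higher (median -0.81). The vesicular GABA transporter gene Slc32a1 was at 28.4, 19.1, 20.8 and 17.1 CPM against 85.7, 97.7, 60.1 and 55.4 CPM and fell by 1.81 ± 0.22 in all pools without overlap. Of the GABA-synthesizing enzymes, Gad2 fell by 0.61, whereas Gad1 was at 522, 492, 766 and 570.4 CPM against 569, 544, 708 and 689 CPM and did not pass (-0.10, adjusted p 0.741). The vesicular glutamate transporter gene Slc17a6 was at 55.7, 48.1, 47.5 and 42.9 CPM against 52.1, 49.9, 33.6 and 40.5 CPM (0.14, adjusted p 0.604). Hdc, the histidine decarboxylase, was the 1 that rose, by 1.33, from 7.52, 4.78, 4.71 and 5.80 CPM in the supernatants to 18.7, 13.2, 11.8 and 13.8 CPM in the pull-downs. Dopamine beta-hydroxylase, Dbh, a gene of noradrenergic cells, had no count in any pull-down and 47 over the supernatants, at least 13.7-fold lower by the same floor.

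Ion channel lists had more lower than higher members and long transcripts. Potassium channels had 1 higher and 7 lower of 38 (median -0.43, median length 5099 bases), with the large-conductance channel gene Kcnma1 at -1.08 and the leak channel gene Kcnk10 at 0.89 (adjusted p 0.0297, and 0.0676 with the block). Calcium channels had 5 lower of 18 (median -0.28, median length 7681 bases), Cacna2d2 at -1.28 among them. Sodium, HCN and TRP channels had 2 higher and 7 lower of 25 (median -0.20, median length 4559 bases). Both higher ones were TRP cation channels. Trpm4, which is activated by calcium, was at 37.6, 48.3, 18.7 and 18.6 CPM in the pull-downs and 10.3, 9.50, 11.6 and 11.6 CPM in the supernatants and rose by 1.52 ± 0.28. Trpc7, of the receptor-operated canonical subfamily, was at 52.2, 60.8, 31.4 and 34.8 CPM against 22.5, 19.9, 17.3 and 18.1 CPM and rose by 1.20 ± 0.23. GABA-A subunits and chloride transporters had 7 lower of 16 (median -0.72, median length 4729 bases), including the chloride extruder gene Slc12a5 (-0.88). Ionotropic glutamate receptors had 2 lower of 17 (median -0.48, median length 5720 bases), a share near the 11.2% of all tested genes, Gria1 (-1.08) and Grin1 (-0.74).

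**Figure D4:**
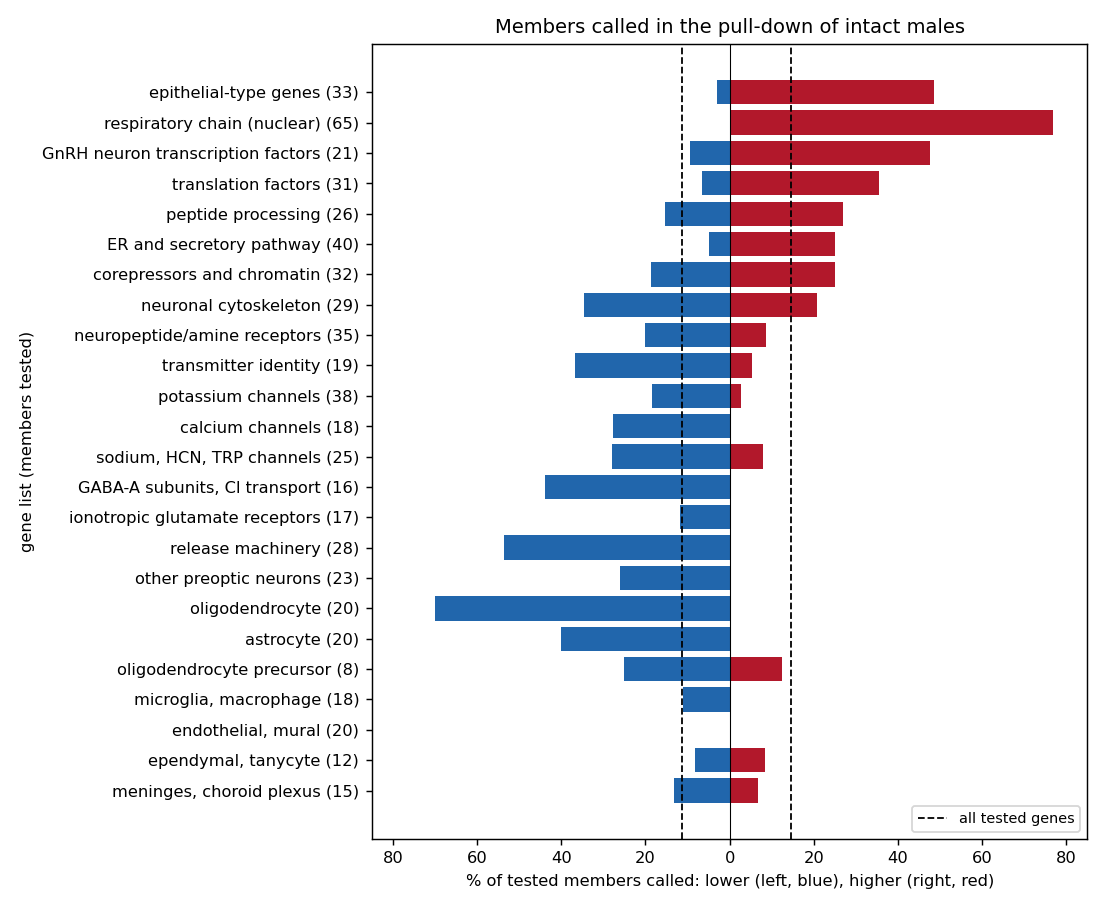
Share of tested members of 24 lists called higher (red, to the right) or lower (blue, to the left) in the pull-down, in percent, with the number tested in brackets. Dashed lines mark the shares of all tested genes, 14.6% and 11.2%. Bars of respiratory chain, epithelial-type and transcription factor genes run furthest right, and those of oligodendrocyte and release genes furthest left. The blood list, lower for 4 of 4, is not drawn.

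Steroid receptors and their coregulators had 2 higher, Ncor1 among them, and 5 lower of 21 (median -0.15, median length 6200 bases). The estrogen receptors did not pass. Estrogen receptor alpha, Esr1, was at 6.54, 1.06, 7.63 and 8.67 CPM against 15.3, 10.1, 12.01 and 16.1 CPM, every pull-down under every supernatant (-1.16, adjusted p 0.0851, and 0.0252 with the block). Estrogen receptor beta, Esr2, the form described in GnRH neurons, was at 0.0977, 0.132, 1.66 and 0.611 CPM against 2.33, 1.88, 1.77 and 1.75 CPM (-1.63, adjusted p 0.0868). Of 25 tested preoptic neuropeptide genes, with a median length of 828 bases, 1 was lower (Pdyn, -1.16) and none higher, and with the block 2 were higher and 3 lower. Galanin, Gal, was at 130.1, 149, 57.3 and 60.8 CPM against 94.9, 94.6, 49.2 and 58.5 CPM (0.42, adjusted p 0.398). Immediate early genes, which report recent activity or dissection, had 2 higher and 2 lower of 22 (median -0.34), and 2 and 7 with the block. Without the block both shares were under the 14.6% and 11.2% of all tested genes. Btg2, an antiproliferative early gene, was at 12.01, 32.2, 106 and 86.5 CPM against 9.36, 9.02, 20.4 and 26.5 CPM, with pools 2 and 3 higher in both fractions (1.85, adjusted p 0.00541).

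Of the genes that fell most, Lars2 took the largest share of counts in every supernatant, from 1.022% to 1.762%. Lars2 encodes the mitochondrial leucyl-tRNA synthetase and, as its counts can hold reads of shared sequence, is reported as uncertain. It was at 908, 939.9, 949 and 1036 CPM in the pull-downs and 17220, 12350, 12410 and 9873 CPM in the supernatants and fell by 3.76 ± 0.28 (adjusted p 2.64e-09). Pull-downs were nearly equal, and the supernatant of pool 0 was the highest. The low-affinity neurotrophin receptor gene Ngfr (-2.93), the myelin junction gene Cldn11 (-2.29), the cell adhesion gene Cadm4 (-2.06), the repulsive guidance gene Rgma (-2.07), the neurexophilin gene Nxph4 (-2.11) and the microtubule-tip gene Clip2 (-2.19) fell. Itpkb (-2.14), Stk24 (-2.22), Slc9a7 (-2.15), Ppp1r37 (-1.89) and the receptor kinase gene Axl (-2.46) complete the 15 named by size with Dpysl2, Eef1a2 and Malat1. The 5 named by level were Lars2, Malat1, Ndrg4 (-0.50), Vamp2 and Cplx1. Malat1, a noncoding RNA of the nucleus, was at 488, 505, 1062 and 1483 CPM in the pull-downs and 2507, 3330, 3611 and 3552 CPM in the supernatants. It fell by 1.88 ± 0.37, and pull-downs of pools 2 and 3 held more of it than those of pools 0 and 1. Of 9 tested nuclear long RNAs, with a median length of 8089 bases, 2 were lower, Malat1 and Meg3 (-0.96), and with the block 5 were.

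Oligodendrocyte markers were mostly lower in the pull-down, whereas most markers of the other cell types did not pass. Oligodendrocyte genes were lower for 14 of 20 and higher for none (median -0.86). The myelin enzyme gene Cnp was at 304, 300.4, 456 and 365 CPM in the pull-downs and 604, 624, 666 and 563 CPM in the supernatants and fell by 0.79 ± 0.16 (adjusted p 0.00114). Mbp (-0.71), Sox10 (-1.41) and Olig1 (-1.09) fell as well. Summed oligodendrocyte CPM ran from 1595 to 2143 in the pull-downs and from 2791 to 3924 in the supernatants. Astrocyte genes were lower for 8 of 20 (median -0.74), and for 12 with the block, with summed CPM of 1358 to 1644 against 1752 to 2586. The glutamate transporter gene Slc1a3 (-1.13) and Sox9 (-1.01) fell, and the water channel gene Aqp4 was at -1.07 (adjusted p 0.0641, and 0.0287 with the block). Microglial genes were lower for 2 of 18 (median -0.70, median length 2287 bases), a share like that of all tested genes, with overlapping sums of 67.66 to 96.29 against 95.05 to 170.1 CPM, and the fractalkine receptor gene Cx3cr1 fell by 2.33. Markers of other preoptic neurons were lower for 6 of 23 (median -0.27, median length 1975 bases), Slc32a1, Gad2, Nxph4 and the interneuron factor gene Lhx6 (-0.88) among them. How much of any gene's level in the pull-down came from these cells was not tested. Of all listed genes, 15 had too few counts to be tested, among them Gata4, Hesx1, Nhlh1, Galr2, Tacr2, Gnrhr, Fgf8, Slc6a5, Foxa1, Trpm5, Trpv1, Cnga2, Esrp2 and Cldn4.

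Vascular, ependymal and meningeal genes had few calls. Endothelial and mural genes had 0 calls in 20 by edgeR's quasi-likelihood test, with 1 above and 2 below 0 at an unadjusted p under 0.05 and 1 lower with the block. Their sums ran from 87.32 to 215.8 CPM in the pull-downs and from 74.34 to 249.2 CPM in the supernatants, highest in pool 1 in both fractions. Ependymal and tanycyte genes had 1 higher and 1 lower of 12. Foxj1, the regulator of motile cilia, fell by 1.14, while Dynlrb2, a dynein light chain gene, was at 16.9, 16.4, 10.3 and 15.1 CPM against 7.05, 5.58, 5.35 and 5.45 CPM and rose by 1.33. Meningeal and choroid plexus genes, 15 of them, had 1 higher (Otx2) and 2 lower, and none higher and 5 lower with the block. Their sums ran from 283.3 to 1556 CPM in the pull-downs and from 453.8 to 2373 CPM in the supernatants, high in pools 1 and 3 in both fractions. Oligodendrocyte precursor genes had 1 higher and 2 lower of 8 (median length 4740 bases). The higher one, the proteoglycan gene Cspg4, was at 65.9, 64.8, 11.4 and 5.60 CPM in the pull-downs and 7.33, 9.02, 4.28 and 3.56 CPM in the supernatants. It was high in the pull-downs of pools 0 and 1 alone, and the pull-down of pool 3 fell under a supernatant (2.61 ± 0.63, adjusted p 0.00352).

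Blood genes were called lower for 4 of 4, and for 3 of them this rests on 1 library. In 0 of the 4, the haemoglobin gene Hba-a1 included, was every pull-down under every supernatant. The haemoglobin gene Beta-s was at 35.3, 31.1, 34.2 and 28.7 CPM in the pull-downs and 27.5, 40.7, 42.03 and 1817 CPM in the supernatants. Only the supernatant of pool 3 stood above the others, and the same held for Hba-a2, at 0, 17.8, 21.2 and 932 CPM, and for the heme synthesis gene Alas2, at 1.79, 3.06, 2.60 and 139 CPM. The list summed to 2982 CPM there, to 45.69 to 66.39 CPM in the other supernatants and to 45.03 to 56.21 CPM in the pull-downs. Without that supernatant the log2 differences of -3.90 for Beta-s, -5.09 for Alas2 and -3.66 for Hba-a2 became -0.19, -1.21 and 0.56 and did not pass. With the pool as a block only Hba-a1 was called, and in pools 0 and 1 alone the list's median was -0.33. Without both libraries of pool 3, 2077 of all genes were higher and 1556 lower.

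The test of pools 0 and 1 against pools 2 and 3 asked where the enrichment itself differed. It was larger in pools 0 and 1 for 135 genes (0.808%) and smaller for 170 (1.02%). With the pool as a block the counts were 0 and 21, none of the genes named here passed, and without the supernatant of pool 3 they were 0 and 1. Leaving out any other supernatant gave at most 7 and 23, and leaving out the pull-down of pool 2 or of pool 3 gave 0 and 18 or 20 and 58. Without the pull-down of pool 0 they were 140 and 429, and without that of pool 1 105 and 282. Genes above 0 were short, with a median longest transcript of 1696 bases, and were well expressed, with a median of 275.3 CPM in the pull-downs, and 127 of them were higher than the supernatant in both pairs of pools. The first 6 by size were Trpm4 (1.42 ± 0.33, adjusted p 0.0368), the small nuclear ribonucleoprotein gene Snrpg (1.24), Cyb5 (1.17), Chchd5 (1.09), Atp5l (1.05) and Dnttip2 (1.05). Cytochrome b5, Cyb5, was at 262, 265, 116 and 121 CPM in the pull-downs and 64.2, 76, 70.1 and 71.9 CPM in the supernatants, and only its pull-downs separated the pairs of pools. Genes below 0 were longer, with a median of 6050 bases, and lower, with a median of 22.3 CPM. Of these, 23 were under 0.1 CPM in the pull-downs of both pools 0 and 1. Sgcd, a sarcoglycan gene, was at 0, 0.0264, 1.88 and 1.66 CPM in the pull-downs and 2.49, 2.09, 2.62 and 1.57 CPM in the supernatants (-6.93 ± 1.12, adjusted p 0.00797). Its level in pools 2 and 3 was near that of the supernatants, and it was all but absent from the other pull-downs. Tmem173 (-9.27), Recql4 (-9.09), Cdhr1 (-6.96), Ushbp1 (-6.82) and Dnm3os (-6.63) were likewise under 0.1 CPM in the pull-downs of pools 0 and 1, and the size of these differences depends on counts at or near 0. With at least 10 counts required in each of the other pull-downs, 59 tested genes had no count in those of pools 0 and 1. In those of pools 2 and 3, 8 genes had none, and no count was required in the supernatants. In all 4 pull-downs 146 tested genes had no count, and 110 of these were called lower, while 8 had no count in any supernatant.

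Orchidectomized males and intact females, as separate pools of mice, gave the same contrast for comparison. In orchidectomized males 991 genes were higher in the pull-down (5.93%) and 791 lower (4.73%), and in intact females 1706 (10.2%) and 1299 (7.77%). All 15 genes named by size as higher in intact males were called higher in both, at log2 4.39 to 6.94 in orchidectomized males and 3.30 to 4.91 in females. Of the 15 lower ones, 13 were called lower in orchidectomized males and 14 in females, and Axl was called in neither. Of the 5 named by level as higher, 1, Gnrh1, was called in orchidectomized males, where Ubb was at 0.34, Ppia at 0.24, Snrpn at 0.16 and Calm2 at 0.05, and all 5 were called in females. Of the 5 lower ones 4 were called in each. Genes higher in both intact and orchidectomized males numbered 713, which was 29.15% of the first list and 71.95% of the second, and none was called in opposite directions. With intact females 1537 were shared, 62.84% of the intact male list and 90.09% of the female one. In females 2 genes higher in intact males were called lower, and 1 lower gene was called higher. Lower genes were shared by 590 with orchidectomized males (31.4% and 74.59%) and by 842 with females (44.81% and 64.82%). Gnrh1 was at 4426, 7406 and 8743 CPM in the pull-downs of orchidectomized males and 109.8, 61.88 and 47.5 CPM in their supernatants. The lowest of these pull-downs lay just under those of intact male pools 2 and 3, and all were below those of pools 0 and 1. In females it was at 20930, 16900 and 3174 CPM in the pull-downs and 98.23, 69.01 and 1579 CPM in the supernatants, the last of each being 1 pool with the lowest ratio.

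**Figure D5:**
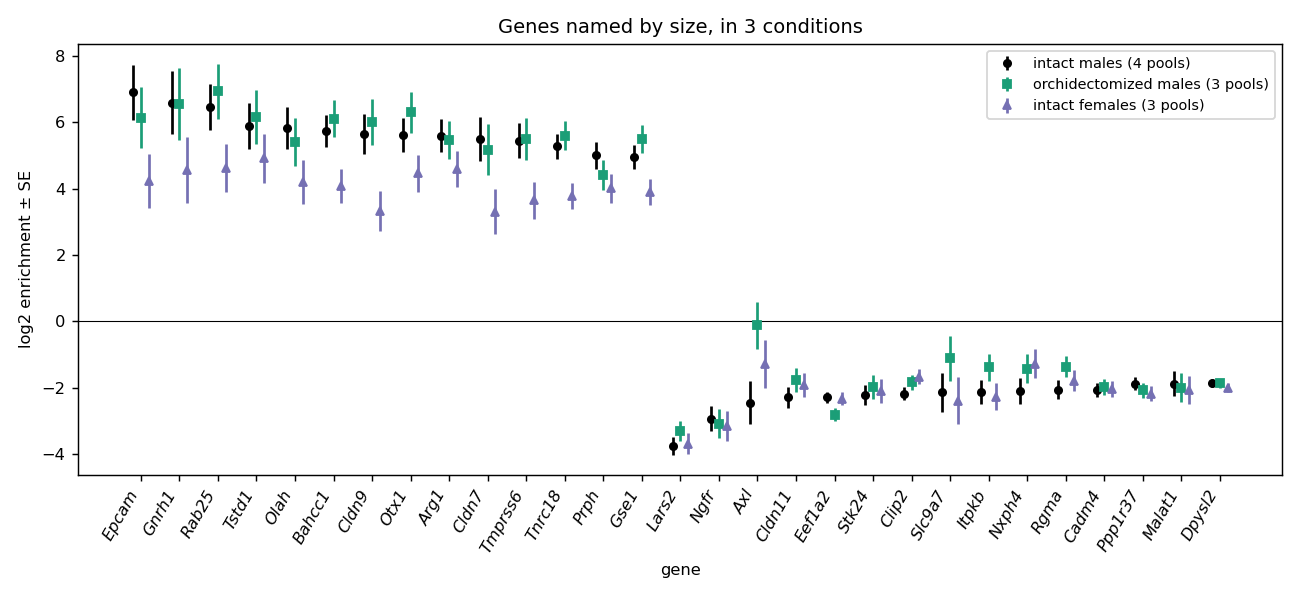
Log2 difference of pull-down and supernatant ± SE for 14 genes named as higher and the 15 named as lower by size, in intact males (4 pools), orchidectomized males (3 pools) and intact females (3 pools). Every higher gene lies above 3 in all 3 conditions. Axl lies at -2.46 in intact males, -0.13 in orchidectomized males and -1.29 in females.

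The tests of the difference between conditions called almost nothing. Between intact and orchidectomized males edgeR's quasi-likelihood test called 0 genes in either direction (0%), with 751 above and 613 below 0 at an unadjusted p under 0.05. DESeq2 called 6 larger and 11 smaller in intact males, and limma voom 0. The 5 genes of lowest p, none of which passed, were Gata2 (-4.75, adjusted p 0.249), Arap3, 4931440F15Rik, Mcm3 and Zbtb32, all below 0. Gata2, a zinc finger factor of haematopoietic and pituitary cells among others, was at 0.0244, 0.106, 0.112 and 0.220 CPM in the intact male pull-downs and 1.30, 2.39, 1.39 and 2.19 CPM in their supernatants. With intact male pools 0 and 1 alone the counts were 136 and 286, and with pools 2 and 3 alone 0 and 0. All orchidectomized libraries are numbered 18 and above, and their pools held 5 mice each. The calls with intact male pools 0 and 1 alone therefore cannot be told apart from library number or pool size. For Gnrh1 the difference was 0.04 ± 1.13.

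Between intact males and intact females 1 gene was called (0.00598%), with 458 above and 282 below 0 at an unadjusted p under 0.05. Arap3, a GTPase-activating gene of endothelial and immune cells, was at 0.0733, 0.0529, 0.0281 and 0.171 CPM in the male pull-downs and 1.43, 2.47, 1.73 and 1.19 CPM in the male supernatants, and its enrichment was smaller in males by a log2 of -5.24 ± 0.84 (adjusted p 0.033). It was not called with the pool as a block or in limma voom. Leaving out a single library of male pools 0 to 2, any female supernatant or the pull-down of female pool 1 also lost the call. DESeq2 called 5 genes larger and 4 smaller in males. Without the pull-down of female pool 2, the one with the low ratio of Gnrh1, 89 genes were larger and 6 smaller in males, and with pools numbered 1 to 10 of both sexes 8 and 4. Both settings were added after seeing the data. For Gnrh1 the difference was 2.04 ± 1.14 (adjusted p 1.000).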

How the data were processed

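RNA was amplified with SMART-Seq v4, which does not mark the strand, and sequenced paired-end, per the labels' protocols. The authors' deposited values are estimated counts per gene (23107 genes), of which 1.46% were not whole. TopHat2 2.0.9, Bowtie2 2.1.0, Cuffdiff 2.1.1, Cufflinks, FastQC and mm10 are named, per the submitters' processing notes. For the gene annotation and for reads that map to several places, the method was not given in the sources used here.

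Counts were rounded and fitted in edgeR 4.0.16 (R 4.3.3, limma 3.58.1) with TMM scaling, filterByExpr (minimum count 10, minimum total 15) and the quasi-likelihood test over all 26 libraries in 8 groups. The contrast was intact male pull-down minus supernatant, with Benjamini-Hochberg adjusted p under 0.05 over 16713 genes. All adjusted p-values in the text come from this test unless another is named, and differences are log2 with their standard errors. The p-values measure the spread between pools within a group, with a common estimate for each gene over all 26 libraries. The labels call the pools biological replicates. The main fit did not pair the fractions of a pool, which the fit with the pool as a block did. The script was tested on simulated data. There the enrichment contrast recovered 47.0% of changes of a log2 of 1 and 71.0% of those of 2. For the difference between pairs of pools it was 1.0% and 31.0%. For intact against orchidectomized males it was 21.0% and 55.7%, and for intact males against intact females 20.2% and 56.7%. No replicate pair agreed within sampling noise. Both fractions of a pool come from the same mice, and their deviations from the group means correlated at 0.201 to 0.238 within pools, against -0.21 to 0.069 between pools.

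Named genes were the 15 largest differences in each direction among called, non-overlapping genes with a mean of at least 5 CPM over the 8 libraries, and the 5 of highest level, passing over predicted, ribosomal, mitochondrial and Y-linked genes; for differences of enrichment, up to 6 called genes a direction or the 5 of lowest p. List members could always be named. Some genes are not reported here. The members and lists were chosen with earlier results of these data known. Alternatives were the pool block, the 8 libraries alone, DESeq2 1.42.0 and its size factors, limma voom, no filter, each library left out, and each pair of pools. Some were added after seeing the data. These left out pool 3 or 1 library of the orchidectomized males or intact females, or took both sexes numbered 1 to 10. The contrast in orchidectomized males and in intact females was added as well. Promoters were RefSeq's.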

Additional observations from a re-analysis of the deposited data

Results flagged for a closer look

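Among 338 groups of 4 values looked at, 17 had a highest or lowest sample far from the other 3, a gap that chance gives in about 1 in 20 groups. Blood genes in the supernatant of pool 3 account for 4 of them, Beta-s at 1817 CPM, Hba-a2 at 932.3, Alas2 at 139 and the summed blood list at 2982. The pull-down of the same pool was the lowest for Hba-a2, at 16.13 CPM. Supernatants of pool 1 were the highest for Bahcc1 (15.27 CPM), Gse1 (48.52) and Lhx2 (22.57). Supernatants of pool 0 were the highest for Foxj1 (33.66 CPM), Dynlrb2 (7.049) and Sox9 (69.25), and the lowest for the summed respiratory chain genes (21100). Pull-downs of pool 0 were the lowest for Lhx2 (8.326 CPM) and Cplx2 (78.8). The pull-down of pool 1 was the highest for Meg3 (385.1 CPM) and for the summed endothelial and mural genes (215.8), and that of pool 2 for Ppp1r37 (36.02). The cause of these values was not tested.

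Enrichment differed between pools 0 and 1 and pools 2 and 3, by the test of the difference, for the 12 genes named there, none of which passed with the pool as a block. The log2 difference was 1.424 for Trpm4, 1.245 for Snrpg, 1.169 for Cyb5, 1.09 for Chchd5, 1.052 for Atp5l and 1.047 for Dnttip2. It was -9.267 for Tmem173, -9.095 for Recql4, -6.963 for Cdhr1, -6.934 for Sgcd, -6.821 for Ushbp1 and -6.625 for Dnm3os. Between intact males and intact females it differed for Arap3, by -5.236.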

How the results depend on the processing

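The counts of enriched and depleted genes stayed within 1.5 times under every alternative but 1. With pools 2 and 3 alone 520 genes were higher and 277 lower, and with pools 0 and 1 alone 2071 and 2037. Of 122 called genes named in the text, 54 were called the same way under every alternative. With the pool as a replicate block 2228 genes were higher and 2101 lower, and for the enrichment of single named genes it changed the calls given beside them and no other. The log2 difference of Gnrh1 ran from 5.52 to 7.00 over the other alternatives and from 6.17 to 7.12 with 1 library left out.

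Hba-a2, at -3.66, reversed to 0.004 with the replicate block, 0.103 in limma voom, 1.135 in pools 0 and 1 alone and 0.632 without both libraries of pool 3, and ran from -4.078 to 0.558 with 1 library left out. The 0.558 came without the supernatant of pool 3.

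For pools 0 and 1 against pools 2 and 3, the genes above and below 0 numbered 0 and 21 with the block, 733 and 538 in DESeq2, 509 and 302 in limma voom, and 0 and 2 without both libraries of pool 3. Leaving out 1 library gave 0 to 140 above and 1 to 429 below.

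Against orchidectomized males, DESeq2 called 6 larger and 11 smaller, and pools 0 and 1 alone 136 and 286. Against females, DESeq2 called 5 larger and 4 smaller, and pools of both sexes numbered 1 to 10 called 8 and 4. The smaller count was 0 with the block, 0 in limma voom, 18 with male pools 0 and 1 alone and 0 with male pools 2 and 3 alone. Leaving out 1 library gave 0 to 89 larger and 0 to 6 smaller, the highest without the pull-down of female pool 2. The cause of these changes was not tested. For genes near 0 in a pull-down the size of a fold change rests on a few counts.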
